A study of Mus musculus with 3 samples.

Results

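The genes described here are 10 genes of protein folding and stress signalling in the endoplasmic reticulum (ER): Canx, Calr, Pdia3, Hspa5, Hsp90b1, Serp1, Xbp1, Atf6, Atf4 and Ddit3. They were chosen by name, and their values come from the rows of the deposited table that carry these symbols. Of the 10 genes, 9 had a row, 10 rows in all among 38976, since Canx had 2; Atf6 was not analysed here. Each of 3 arrays compared total RNA of a late carcinoma, an 18-week outgrowth labelled with Cy3, with that of an adenoma, a 5-week outgrowth labelled with Cy5. Both stages grew from hyperplasias of pubertal mice that carried MMTV-PyMT, in which a mammary tumour virus promoter drives the polyoma middle T oncogene, together with a B-actin-GFP transgene. The hyperplasias had been moved singly into syngeneic hosts, and the labels name no cell sorting, so host cells may be part of either RNA.

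The ER is where secreted and membrane proteins enter the secretory pathway. They pass through the Sec61 translocon, receive N-glycans and are folded by the lectin chaperones calnexin and calreticulin, the HSP70 protein BiP and the HSP90 protein GRP94. When unfolded protein builds up, IRE1 splices the Xbp1 mRNA, ATF6 is cut to release a transcription factor, and PERK phosphorylates eIF2, which favours translation of ATF4 and so expression of CHOP. Milk-secreting mammary cells make heavy use of this system.

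The deposited values are log ratios, with array medians of -0.012, -0.025 and -0.033. They were read as log2 of adenoma over late carcinoma, from the dyes and the usual convention, so a value below 0 lies on the late carcinoma side and a value above 0 on the adenoma side. The sources give no numerator and no log base, which makes each direction below likely but not settled. Late carcinoma RNA carried Cy3 on every array, so stage and dye cannot be told apart. A log ratio holds no level, so the presence of mammary markers could not be checked, and only 3 arrays limit the precision. The labels do not say whether different animals supplied the arrays. The p-values then reflect nothing but the spread among arrays, which may be technical. In limma's moderated test, the spread of each gene was drawn toward a value pooled over all genes and probes (prior SD 0.206, 4.6 degrees of freedom). A small SD given below is thus not the spread that the test used.

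Of the 9 measured genes, 1 passed the threshold below 0 (Ddit3) and 2 above 0 (Serp1 and Canx). The threshold was a Benjamini-Hochberg adjusted p of 0.05 in limma's moderated test, which 25.1% of 31058 genes and unnamed probes passed. Among 15055 named genes, 9.19% passed below 0 and 16.0% above 0, so the count of members is near the background. The median of their 9 means was -0.099, beside -0.027 over all named genes. The main luminal chaperones, BiP, GRP94 and calreticulin, were not among the genes that passed on the deposited scale. In whole tissue, fewer cells of a type and less RNA per cell cannot be told apart.

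**Figure D1:**
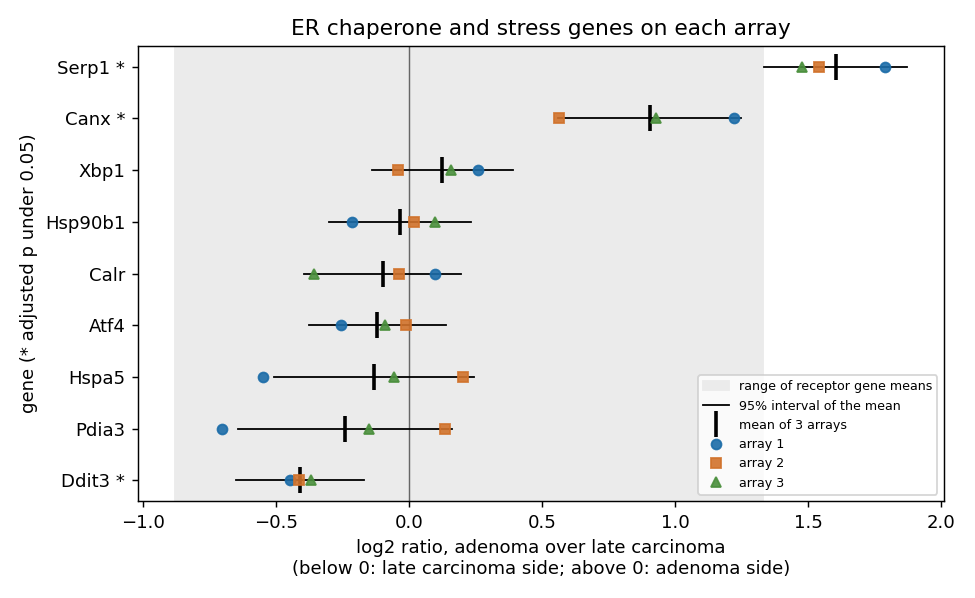
Log2 ratio of adenoma over late carcinoma (x axis) of the 9 measured genes (y axis) on each of 3 arrays, with the mean, its 95% interval from the limma fit and, in grey, the range of the means of 978 olfactory and vomeronasal receptor genes. Ddit3 lies below 0 on 3 of 3 arrays, Serp1 and Canx lie above 0 on 3 of 3, and the arrays of the other genes, except those of Atf4, fall on both sides of 0.

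Serp1 had the highest ratio of the 9 genes. It encodes RAMP4, a small membrane protein that associates with the Sec61 translocon and is induced in the unfolded protein response. Its single probe had log2 ratios of 1.79, 1.54 and 1.48 on arrays 1, 2 and 3. All 3 arrays lay on the adenoma side. The mean was 1.60 ± 0.16 (SD, n = 3), a 3.04-fold ratio of adenoma over late carcinoma, with a 95% interval of 1.33 to 1.87 on the log2 scale (limma adjusted p = 0.00959). By mean it ranked 9 from the top of 15055 named genes; were the ratio formed the other way, its rank would be 15047 and its fold 0.329. Olfactory and vomeronasal receptors serve smell, and their genes give a range for ratios of transcripts that mammary tissue is not known to use. The means of 978 such genes ran from -0.88 to 1.33 around a median of 0.34, and 0 of them reached the mean of Serp1. Of these genes, 26 passed the threshold below 0 and 426 above 0, or 46.2% in all, so a call above 0 was common among them too. On single arrays, 3, 0 and 1 of them were as high as Serp1.

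Canx encodes calnexin, the membrane-bound lectin that holds newly made glycoproteins while they fold. Its 2 probes had log2 ratios of 1.67, 0.45 and 0.99, with a mean of 1.04, and of 0.77, 0.68 and 0.87, with a mean of 0.77. Both probes lay on the adenoma side on 3 of 3 arrays, and they stood furthest apart on array 1. Their average was 1.22, 0.57 and 0.93, a mean of 0.91 ± 0.33 (SD, n = 3) or a 1.87-fold ratio of adenoma over late carcinoma (limma adjusted p = 0.0119). Tested as single rows, the probes had adjusted p-values of 0.0168 and 0.00966. Of the 978 receptor genes, 97 had a mean as high.

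Calr and Pdia3 work with calnexin: calreticulin is its soluble counterpart in the ER lumen, and ERp57, the disulfide isomerase made from Pdia3, binds both lectins. Calr had log2 ratios of 0.096, -0.037 and -0.36, a mean of -0.099 ± 0.23 (SD, n = 3; limma adjusted p = 0.584; 95% interval -0.40 to 0.20). Pdia3 had -0.70, 0.13 and -0.15, a mean of -0.24 ± 0.43 (adjusted p = 0.326; 95% interval -0.64 to 0.16). The arrays of each gene fell on both sides of 0. Within the arrays, Canx stood above Calr by 1.12, 0.60 and 1.29 log2 units, a mean difference of 1.004 ± 0.36 (SD, n = 3). The exact two-sided sign permutation test gave p = 0.25, the smallest that 3 arrays allow, and 0.5 after adjustment over the 4 pairs compared. Pdia3 minus Calr was -0.80, 0.17 and 0.21, a mean of -0.14 ± 0.57 (exact permutation p = 1, adjusted 1). Canx thus exceeded Calr on 3 of 3 arrays, in a design too small to pass the threshold.

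Hspa5 and Hsp90b1 encode BiP (GRP78) and GRP94, the chaperones by which the unfolded protein response is usually recognised. Hspa5 had log2 ratios of -0.55, 0.20 and -0.055, a mean of -0.13 ± 0.38 (SD, n = 3; limma adjusted p = 0.561; 95% interval -0.51 to 0.24). Hsp90b1 had -0.21, 0.019 and 0.096, a mean of -0.033 ± 0.16 (adjusted p = 0.850; 95% interval -0.30 to 0.23). Both genes were lowest on array 1, as was Pdia3, and neither held 1 sign across arrays. Hspa5 minus Hsp90b1 was -0.34, 0.18 and -0.15 log2 units within the arrays, a mean of -0.10 ± 0.26 (SD, n = 3; exact two-sided sign permutation p = 0.75, adjusted 1).

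Xbp1, the target of IRE1, encodes a transcription factor that widens the secretory capacity of plasma cells and gland cells. Its log2 ratios were 0.26, -0.040 and 0.16, with a mean of 0.13 ± 0.15 (SD, n = 3; limma adjusted p = 0.433; 95% interval -0.14 to 0.39). Array 2 lay just below 0 and the others above it. The table does not tell the spliced from the unspliced form, so the ratio says nothing of IRE1 activity. Atf4, whose protein is controlled mainly at translation, had -0.26, -0.010 and -0.090, a mean of -0.12 ± 0.13 (adjusted p = 0.444; 95% interval -0.37 to 0.14). All 3 values were below 0, by less than the fit could tell from 0.

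Ddit3 encodes CHOP, a transcription factor linked to cell death under lasting ER stress, and was the single measured gene of the 9 to pass on the late carcinoma side. Its log2 ratios were -0.45, -0.41 and -0.37, the closest set among the 9 genes. The mean was -0.41 ± 0.040 (SD, n = 3; limma adjusted p = 0.0293; 95% interval -0.65 to -0.17), which is 1.33-fold late carcinoma over adenoma. Of the 978 receptor genes, 27 had a mean as low. The call needs all the arrays: without array 1, 2 or 3 the means were -0.39, -0.41 and -0.43, with adjusted p-values of 0.0527, 0.0784 and 0.166. Ddit3 minus Atf4, whose protein activates it, was -0.19, -0.40 and -0.28 log2 units, a mean of -0.29 ± 0.11 (SD, n = 3; exact two-sided sign permutation p = 0.25, adjusted 0.5).

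The ER stress response element (ERSE) joins a CCAAT box, bound by NF-Y, to a CCACG block, bound by ATF6, at a fixed spacing. Its letters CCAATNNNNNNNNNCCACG were searched on both strands in promoters of 300 bases, 250 before and 50 after the start, from RefSeq on GRCm38.p6. All 9 measured genes matched a promoter in that table. An exact ERSE stood in 0.119% of 32851 promoters, and among the 9 in those of Canx, Calr, Hspa5 and Hsp90b1. The stretches around it are shown because these 4 genes share the element while 1 of them, Canx, passed the threshold. Capitals mark its fixed letters on either strand, and the stretch of Hsp90b1 holds 2 exact copies and, between them, 1 copy with a mismatch in the CCACG block.
Canx, chr11:50325770-50325848, minus strand, mean log2 ratio 0.91: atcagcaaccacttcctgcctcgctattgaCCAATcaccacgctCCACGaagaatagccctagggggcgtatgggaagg
Calr, chr8:84847045-84847123, minus strand, mean log2 ratio -0.099: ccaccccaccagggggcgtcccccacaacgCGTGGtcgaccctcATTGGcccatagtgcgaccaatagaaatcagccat
Hspa5, chr2:34771995-34772073, plus strand, mean log2 ratio -0.13: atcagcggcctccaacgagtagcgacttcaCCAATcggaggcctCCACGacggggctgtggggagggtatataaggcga
Hsp90b1, chr10:86705503-86705686, minus strand, mean log2 ratio -0.033: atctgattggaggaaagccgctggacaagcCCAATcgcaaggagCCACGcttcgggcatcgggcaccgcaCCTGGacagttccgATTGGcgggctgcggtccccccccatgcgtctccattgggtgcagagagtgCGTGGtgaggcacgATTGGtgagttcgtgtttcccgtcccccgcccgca

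Pdia3 and Ddit3 held a copy with 1 mismatch in the CCACG block, and 0.998% of all promoters held a copy with at most that. Serp1, with the highest ratio, held a CCAAT box (capitals below), as 37.4% of all promoters did, and no ERSE. In Serp1 the letters CCACG follow that box directly, without the 9 free bases of the ERSE. The share of promoters with that arrangement was not counted. These stretches are shown to set the promoters of the other genes that passed, Serp1 and Ddit3, beside those above.
Pdia3, chr2:121413843-121413901, plus strand, mean log2 ratio -0.24: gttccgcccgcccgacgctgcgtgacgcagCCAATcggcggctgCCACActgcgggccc
Ddit3, chr10:127290672-127290750, plus strand, mean log2 ratio -0.41: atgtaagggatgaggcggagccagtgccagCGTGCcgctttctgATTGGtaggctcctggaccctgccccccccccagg
Serp1, chr3:58525899-58525963, minus strand, mean log2 ratio 1.60: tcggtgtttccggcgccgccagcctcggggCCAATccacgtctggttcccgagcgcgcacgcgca

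Among other ER genes with a promoter in the table, 6 of 125 held an exact ERSE: Creld2, Derl3, Dnajc3, Ero1b, Pdia6 and Syvn1. The median of their mean log2 ratios was -0.15, beside -0.0078 for those without it, and 1 of the 6, the ubiquitin ligase gene Syvn1, passed, above 0. The XBP1-type element TGACGTGG was in 7 of the 125 and in 0.676% of all promoters, and 2 of those genes, Sec23a and Vcp, passed below 0. The variant ATTGGNCCACG was in 2 (Dnajb11 and Herpud1, of which Herpud1 passed, above 0) and in 0.0365% of all promoters, and the amino acid response element TGATGNAAT in 4, of which 0 passed, and in 0.965%. None of these 3 elements was in these windows of the 9 genes. The counts of genes that passed are small. They are to be read beside the shares of all named genes, 9.19% below 0 and 16.0% above 0. The letters ATTGGNCCACG share their CCAAT and CCACG blocks with the ERSE at another spacing and orientation.

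The rest of the pathway was taken from 8 lists of 165 other ER genes, of which 149 were measured. Of the 149, 17 passed below 0 and 25 above 0, or 28.2%, beside 25.1% of all genes and probes. Each count of a role group or marker list below is to be read beside the shares of all named genes, 9.19% below 0 and 16.0% above 0. The median of their mean log2 ratios was -0.023. Centred on the receptor genes, 84 passed below 0 and 10 above 0, beside 16874 and 2274 of all 31058 genes and probes. The balance of calls in each role group is therefore given on both scales. Each receptor-centred count is to be read beside that shift of the whole array. Without array 3, 0 genes passed in any of the 8 groups, while limma's unadjusted p under 0.05 gave 19 below 0 and 27 above 0.

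**Figure D2:**
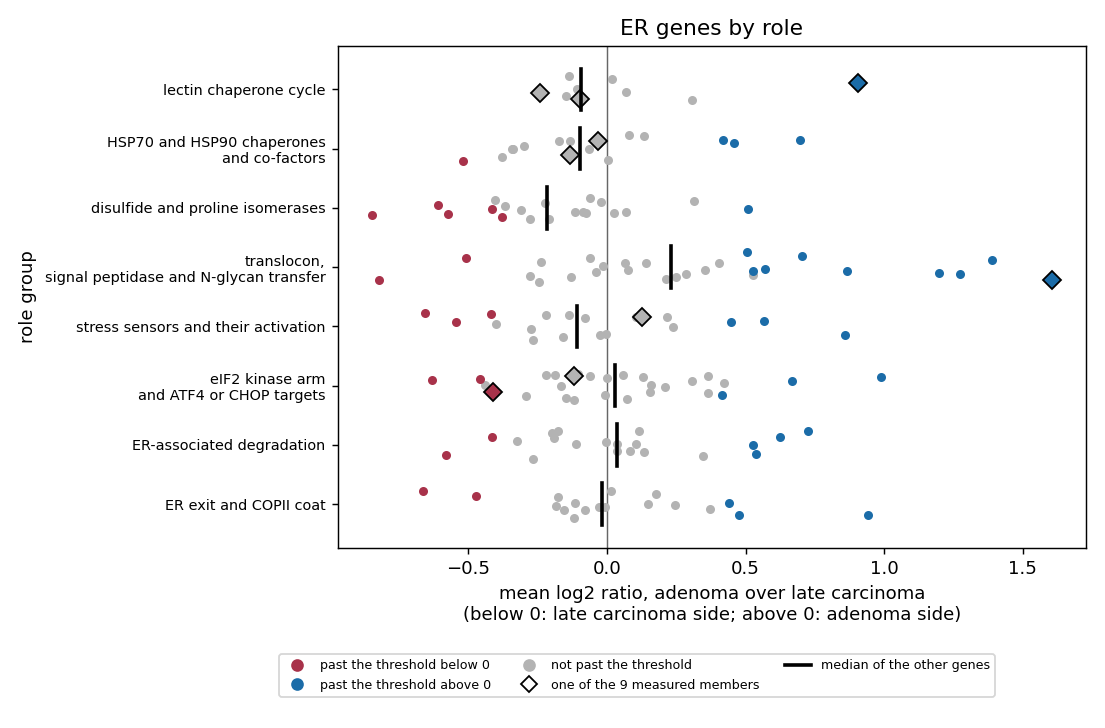
Mean log2 ratio of adenoma over late carcinoma (x axis) of 149 other ER genes (circles) and the 9 measured genes of the main list (diamonds), by role (y axis), coloured by limma call at an adjusted p of 0.05, with a bar at the median of the other genes. The isomerase median lies at -0.22 and that of the translocon group at 0.23, or -0.12 for the translocon group once centred on the receptor genes.

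Genes for entry into the ER, where RAMP4 acts, held more calls above 0 than any other of the 8 role groups, on the deposited scale and with receptor centring alike. Of 26 measured genes of the translocon, signal peptidase and N-glycan transfer, 2 passed below 0 and 8 above 0. Spcs2, a signal peptidase subunit, had log2 ratios of 1.66, 1.01 and 1.50, a mean of 1.39 ± 0.34 (SD, n = 3; limma adjusted p = 0.0117). Magt1, a subunit of the enzyme that transfers N-glycans, had 1.72, 0.85 and 1.25, a mean of 1.27 ± 0.44 (adjusted p = 0.0117). Sec62, which helps proteins enter the translocon after their synthesis, had 1.50, 0.88 and 1.22, a mean of 1.20 ± 0.31 (adjusted p = 0.0117). All 3 genes lay on the adenoma side on every array and were lowest on array 2.

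Some members of single complexes lay on opposite sides. The next genes were chosen after their values were seen, and those that passed rest on 1 probe each. Sec61a1, the pore subunit of the translocon, averaged a log2 ratio of -0.82 ± 0.61 (SD, n = 3; limma adjusted p = 0.0364), and Sec61g, a small subunit of the same channel, 0.87 ± 0.19 (adjusted p = 0.0117). Rpn1, a subunit of the oligosaccharyltransferase, had -0.51 ± 0.20 (adjusted p = 0.0259), and its catalytic subunit Stt3a 0.70 ± 0.13 (adjusted p = 0.0118). In the same complexes, Sec61b, at -0.13 ± 0.31 (adjusted p = 0.525), and Rpn2, at -0.041 ± 0.10 over 24 probes (adjusted p = 0.798), did not pass. The group counted 0 below 0 and 10 above 0 without array 1. Centred on the receptor genes it counted 9 below 0 and 5 above 0.

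The disulfide and proline isomerases, which shuffle disulfide bonds and turn proline bonds in folding proteins, held 5 genes past the threshold below 0 and 1 above 0 among 20 measured. P4hb, the classical protein disulfide isomerase, had log2 ratios of -1.32, -0.63 and -0.59, a mean of -0.85 ± 0.41 (SD, n = 3; limma adjusted p = 0.0162). Tmx1, a membrane-bound isomerase, had -0.61 ± 0.099 (adjusted p = 0.0130), and Fkbp7, a proline isomerase, -0.57 ± 0.015 (adjusted p = 0.0131). The 3 genes lay on the late carcinoma side on every array, P4hb furthest on array 1. The group counted 3 below 0 and 1 above 0 without array 2, and 8 and 2 with array weights. Centred on the receptor genes it counted 17 below 0 and 0 above 0.

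Among 14 other HSP70 and HSP90 chaperones and co-factors, 1 passed below 0 and 3 above 0, with a median of -0.099. Sdf2l1, which acts with BiP and its J-domain partners, averaged a log2 ratio of -0.52 ± 0.11 (SD, n = 3; limma adjusted p = 0.0182). Dnajb9 and Dnajc10, J-domain proteins that stimulate BiP, had 0.70 ± 0.17 (adjusted p = 0.0123) and 0.46 ± 0.093 (adjusted p = 0.0239). Their probes disagreed: those of Dnajb9 had means of 0.11 and 1.28, and those of Dnajc10 -0.11 and 1.03. The group counted 8 below 0 and 1 above 0 with receptor centring, and 1 and 0 with each row as its own probe. In the lectin cycle around calnexin, 0 of 7 other genes passed in limma's test, and 0 had an unadjusted p under 0.05. With receptor centring, 5 of them passed below 0 and 0 above 0. The gene there with the mean farthest from 0 was Ganab, a subunit of glucosidase II, at 0.31 ± 0.39 (adjusted p = 0.199).

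Of 18 other stress sensors and genes of their activation, 3 passed below 0 and 3 above 0, with a median of -0.11. With receptor centring the counts were 12 below 0 and 1 above 0. Atf6b, the close relative of Atf6, had log2 ratios of -0.65, -0.58 and -0.74, a mean of -0.66 ± 0.077 (SD, n = 3; limma adjusted p = 0.0119). Traf2, an adaptor that binds IRE1 as well as TNF receptors, had 1.03, 0.52 and 1.03, a mean of 0.86 ± 0.29 (adjusted p = 0.0119). Creb3l4, a membrane-bound transcription factor, had 0.57 ± 0.086 (adjusted p = 0.0145). Each of these genes kept 1 sign on 3 of 3 arrays. Of the sensors, chosen after their values were seen, Ern1 (IRE1) had -0.026 ± 0.21 (adjusted p = 0.892) and Eif2ak3 (PERK) 0.22 ± 0.19 (adjusted p = 0.212). Those genes did not pass, while Ern2, the paralogue of Ern1, passed below 0 at -0.55 ± 0.11 (adjusted p = 0.0161).

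Around Atf4 and Ddit3, 2 of 26 other genes of the eIF2 kinase arm and its targets passed below 0 and 3 above 0, with a median of 0.028. The counts were 13 below 0 and 1 above 0 with receptor centring, and 1 below 0 and 4 above 0 without array 2. Cebpb, a partner of CHOP, lay on the same side as Ddit3, at a log2 ratio of -0.63 ± 0.17 (mean ± SD, n = 3; limma adjusted p = 0.0140). Slc3a2, the heavy chain of several amino acid transporters, had log2 ratios of 1.06, 0.76 and 1.15, a mean of 0.99 ± 0.21 (adjusted p = 0.0117). Eif2ak4, the eIF2 kinase that senses amino acid shortage, had 0.67 ± 0.29 (adjusted p = 0.0181). The ATF4 targets Asns, at 0.16 ± 0.16 (adjusted p = 0.329), and Chac1, at 0.36 ± 0.19 (adjusted p = 0.0610), both chosen after their values were seen, did not pass. Other genes of the list, chosen likewise, did. Psat1 passed above 0, at 0.41 ± 0.16 (adjusted p = 0.0387). Tnfrsf10b passed below 0, at -0.46 ± 0.086 (adjusted p = 0.0236), from 4 probes with means from -1.1 to 0.94.

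In ER-associated degradation, which returns misfolded protein to the cytosol, 2 of 20 genes passed below 0 and 4 above 0, with a median of 0.035. The counts were 9 below 0 and 1 above 0 with receptor centring, and 0 below 0 and 2 above 0 without array 1. Vcp, the ATPase that pulls substrates out, averaged a log2 ratio of -0.58 ± 0.33 (SD, n = 3; limma adjusted p = 0.0300). Derl1, a membrane component of the exit channel, had 0.73 ± 0.32 (adjusted p = 0.0167), and Syvn1 had 0.63 ± 0.092 (adjusted p = 0.0124). For exit from the ER in COPII vesicles, 2 of 18 passed below 0 and 3 above 0, with a median of -0.018, and 11 below 0 and 1 above 0 with receptor centring. The paralogous coat genes Sec23a and Sec23b lay on opposite sides, at -0.66 ± 0.28 (adjusted p = 0.0175) and 0.94 ± 0.12 (adjusted p = 0.0117), each with 2 probes of 1 sign. Kdelr2, a receptor that returns escaped chaperones, had 0.48 ± 0.16 (adjusted p = 0.0262), from probes with means of -0.35 and 1.30.

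Of 62 measured ER genes with several probes, 33 had probe means on both sides of 0, or 53.2%, beside 52.9% of 5138 such genes on the whole array. The median gap between the lowest and the highest probe mean was 0.43 for the ER genes and 0.40 for all such genes. Both Canx probes lay above 0. The other 8 measured genes of the main list rest on 1 probe each. In size, the mean of Ddit3 lies between these median gaps.

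**Figure D3:**
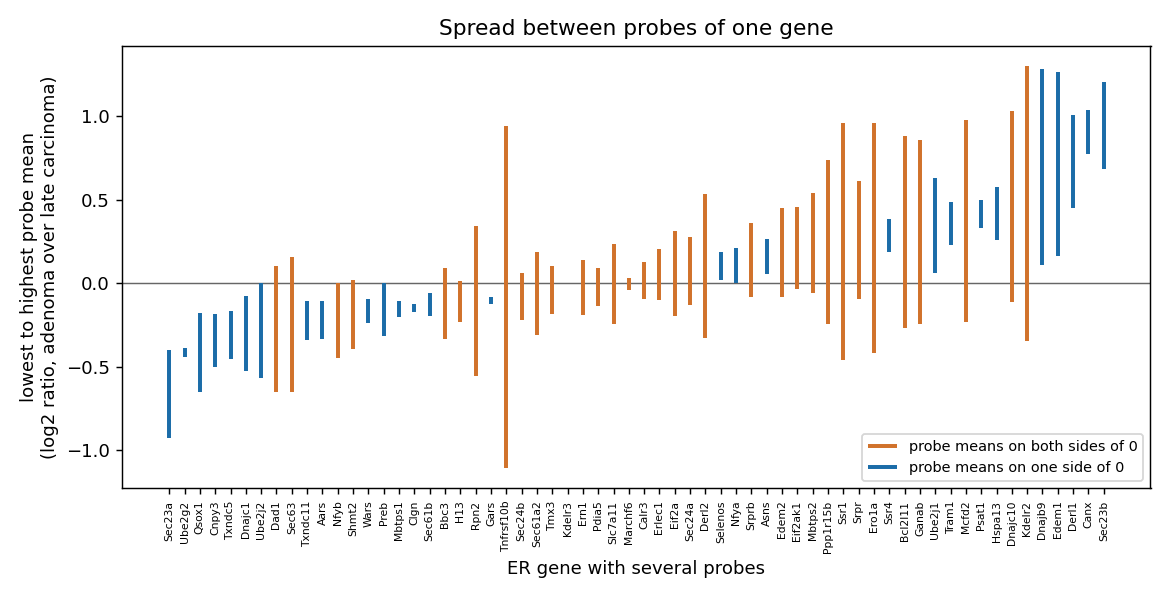
Lowest to highest probe mean (y axis, log2 ratio of adenoma over late carcinoma) of each of 62 ER genes with several probes (x axis). The probe means of 33 genes lie on both sides of 0, while those of Canx lie at 0.77 and 1.04.

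Other cell types were followed through 8 marker lists. Secretory alveolar genes passed above 0 in 7 of 7 cases, led by the casein gene Csn1s1 at 2.55 ± 0.33 (SD, n = 3; limma adjusted p = 0.00945), with array medians of 1.01, 1.73 and 1.58. Fat cell genes passed above 0 in 5 of 6 cases, led by Fabp4 at 3.49 ± 0.60 (adjusted p = 0.00945), with array medians of 0.70, 0.42 and 0.62. Both lists lay on the same side as Serp1 and Canx, and their part in those ratios was not tested. Plasma cells are rich in ER chaperones; 0 of 7 of their markers passed, while at limma's unadjusted p under 0.05 there were 1 below 0 (Jchain, -0.40 ± 0.37, adjusted p = 0.104) and 1 above 0 (Cd79a, 0.28 ± 0.13, adjusted p = 0.0994, chosen after its value was seen). The array medians of that list were -0.055, -0.064 and -0.099.

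Macrophage markers held 1 of 5 genes past the threshold below 0 (Itgam, -1.09 ± 0.27) and 2 above 0, and luminal epithelial markers 1 of 7 below 0 (Krt19, -1.16 ± 0.35) and 2 above 0. Fibroblast markers held 1 of 6 below 0 (Col1a1, -0.84 ± 0.45) and endothelial markers 1 of 6 above 0 (Kdr, 0.69 ± 0.23). Of 7 basal epithelial markers 0 passed, with 1 at limma's unadjusted p under 0.05, and Krt5 had the mean farthest from 0 (-0.28 ± 0.35). The array medians of the fibroblast list were -0.53, -0.020 and -0.042. Array 1 was lowest for that list, and also for the endothelial, luminal epithelial, basal epithelial and secretory alveolar lists. It was not lowest for the plasma cell, macrophage and fat cell lists. Pdia3, Hspa5, Hsp90b1 and P4hb were lowest on array 1 as well. The part of any cell type in their values was not tested.

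**Figure D4:**
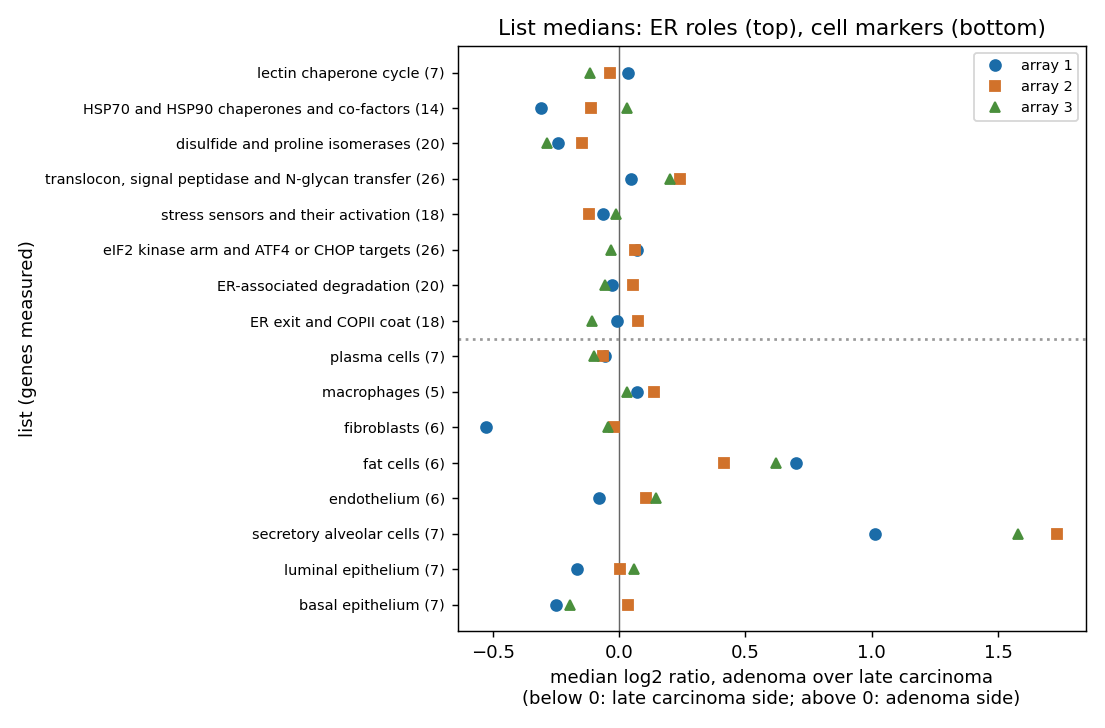
Median log2 ratio of adenoma over late carcinoma (x axis) on each of 3 arrays for 8 ER role groups and 8 cell type marker lists (y axis, with the number of genes measured). The isomerase and stress sensor medians lie below 0 on 3 of 3 arrays, as do those of the plasma cell and fibroblast lists. Those of the translocon group and of the secretory alveolar, fat cell and macrophage lists lie above 0 on 3 of 3.

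Without array 3, calls were lost over the whole fit, with 0 of all genes and probes past the threshold below 0 and 1 above 0. Serp1 then had 1.67 and Canx 0.89, each with a limma adjusted p of 0.114, and 0 of the 9 genes passed. At limma's unadjusted p under 0.05, 1 of the 9 passed below 0 and 2 above 0. Without array 1 or 2, Serp1 had 1.51 and 1.63 and Canx 0.75 and 1.07, and both genes passed. Centring each array on the median of the receptor genes moved the median of all genes and probes to -0.37, against -0.019 as deposited. On that scale 6 of the 9 genes passed below 0, namely Ddit3, Pdia3, Hspa5, Atf4, Calr and Hsp90b1. The centring lowered every ratio, and 16874 of all 31058 genes and probes passed below 0 and 2274 above 0. Serp1, at 1.25 (adjusted p = 0.00364), and Canx, at 0.55 (adjusted p = 0.0109), still passed above 0.

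**Figure D5:**
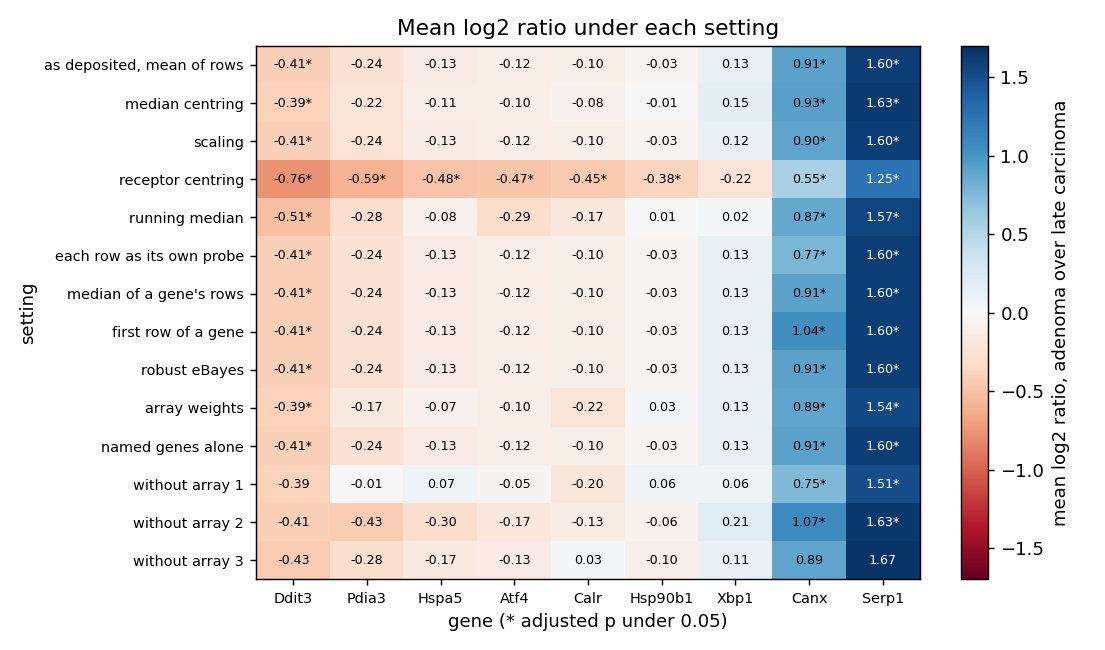
Mean log2 ratio of adenoma over late carcinoma (colour and printed value) of the 9 measured genes (x axis) under each setting (y axis), with a star where the adjusted p was under 0.05. Ddit3 lies below 0 and Serp1 and Canx above 0 under every setting drawn, and centring on the receptor genes lowers all 9.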

How the data were processed

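Total RNA of late carcinomas (Cy3) and adenomas (Cy5) was compared on 3 two-colour arrays of 1 dye orientation, which leaves dye and stage confounded. The deposited values were read as log2 ratios from their range and centring. How the authors scanned, corrected and normalized the arrays is not given in the sources used here. Of 38976 rows, 22973 had 1 gene symbol in the platform annotation, 0 had several and 16003 had none; 1 value was missing.

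Where a gene had several rows, their average on each array was used. For each of 31058 units, limma 3.58.1 (R 4.3.3) compared the mean ratio with 0 (intercept, eBayes, two-sided), with Benjamini-Hochberg adjustment over all units; the code was tested on simulated data. Pairs of genes were compared by exact sign permutation over arrays.

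The genes and lists were chosen with earlier results of these data known. Named were all members, up to 3 genes per role group past the threshold with the largest absolute mean (1 where none passed), and 1 per marker list; others are marked as chosen after their values were seen. Alternatives were median, scale and receptor centring, a running median over 29 rows, other probe rules, robust eBayes, array weights, named genes alone, an adjusted p of 0.1, and leaving out each array.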

Additional observations from a re-analysis of the deposited data

How the results depend on the processing

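Of the calls, those of Serp1 and Canx kept their side of the threshold under every setting run except without array 3, and that of Ddit3 under every one except those that leave out an array. Over those 3 settings, the genes passing of the 9 numbered 0 below 0 and 0 to 2 above 0, other ER genes 0 to 15 below and 0 to 24 above, and all genes and probes 0 to 2840 below and 1 to 4617 above; without array 3, limma's unadjusted p under 0.05 gave 19 other ER genes below and 27 above. With receptor centring the counts were 6 below 0 among the 9, 84 below and 10 above among other ER genes (beside 17 and 25), and 16874 below and 2274 above in all (beside 2861 and 4948). Array weights gave 26 other ER genes and 5386 in all below 0, and an adjusted p of 0.1 gave 28 and 4927. Named genes alone, a smaller set, gave 1657 below and 2617 above. Signs reversed for Xbp1 with receptor centring (-0.22), Calr without array 3 (0.029) and Hspa5 without array 1 (0.074). That of Hsp90b1 reversed with a running median (0.0090), with array weights (0.033) and without array 1 (0.058). None of these genes passed as deposited or under a setting that reversed its sign. Calr, Hspa5 and Hsp90b1 did pass below 0 with receptor centring. Over the 3 settings that leave out an array, the means ran from -0.20 to 0.029 for Calr, -0.30 to 0.074 for Hspa5 and -0.098 to 0.058 for Hsp90b1. Leaving out an array, Canx minus Calr ran from 0.86 to 1.21, Ddit3 minus Atf4 from -0.34 to -0.24, Pdia3 minus Calr from -0.31 to 0.19 and Hspa5 minus Hsp90b1 from -0.24 to 0.017, the last pair reversed without array 1, as was Pdia3 minus Calr. The causes were not tested. Each ratio is itself the within-array comparison of both stages, so the test of its mean against 0 is already paired by array. No further replicate block was left to fit. Signal over background was not used here, so weak probes could not be set apart.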
